A study of Mus musculus with 12 samples.

Results

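The SLC25 genes encode the mitochondrial carrier family, the largest group of transport proteins of the inner mitochondrial membrane. Transcripts of these carriers were taken from total RNA of mouse hearts as genes whose symbol begins with Slc25a and a number, leaving out pseudogenes and 1 further gene, with a mean of at least 10 normalised counts over the 6 libraries. Of 46 genes so chosen, 38 met that level, out of 54751 features listed in all and 18250 features that met the same level. The choice used the mean over both genotypes and not the difference between them.

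A carrier of this family folds into a bundle of membrane-spanning helices around a central binding site that opens in turn to either side of the inner membrane. Through these proteins ADP and phosphate enter the matrix and ATP leaves it, while acids of the citrate cycle and the malate-aspartate shuttle cross in either direction. In heart muscle, which makes nearly all its ATP in mitochondria, the ADP/ATP exchanger and the phosphate carrier feed ATP synthase.

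Hearts came from C57BL/6N mice of 52 weeks. The 3 knockout libraries carry loxP-flanked Rexo2 on both alleles together with 1 allele named Ckmm, a name used for the gene of muscle creatine kinase, from whose promoter Cre recombinase is often driven in heart and skeletal muscle. The 3 control libraries carry the loxP-flanked Rexo2 alleles alone, so the comparison holds the Ckmm allele and any loss of Rexo2 together, and the 2 cannot be told apart. Rexo2 encodes an oligoribonuclease that degrades very short RNAs in mitochondria and cytosol, and the question addressed here is whether carrier transcripts differ between these hearts. Libraries are called by their group and the number in their column name, since the columns carry no replicate number. The labels do not say that each library is its own animal, so every p-value rests on the scatter among 6 libraries, part of which may be technical.

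Rexo2 itself, counted over the whole gene, held 274, 288 and 314 normalised counts in knockout 492, 499 and 501, against 329.7, 368 and 293 in control 490, 498 and 502. The groups overlapped, and since the deleted exons are not given in the labels used here, this count does not check the labels. Recovered depth was 41979163 to 49722049 reads per knockout library and 43561069 to 50764023 per control library, and 71.5, 71.9 and 71.5% of the knockout values lay on features of mitochondrial DNA, against 69.4, 70.0 and 69.5% of the control values. The part of this gap in the results was not tested. The heart marker Myh6, the alpha heavy chain of cardiac myosin, lay between 261196 and 275482 normalised counts in knockout and between 266201 and 290254 in control libraries, while Myh4, a myosin of fast skeletal muscle, was at 0 in all 6. Myh1 and Tnnt3, also skeletal muscle markers, were low but not absent, at 0 to 3.05 and 2.68 to 9.47 normalised counts over the 6 libraries. The 5 skeletal muscle markers summed to 18206 to 19473 in knockout and 15697 to 17050.3 in control libraries, a gap that lies in Acta1, which the heart also expresses, at 4433, 4993 and 5755 normalised counts in the knockout libraries, against 2186, 3715 and 4183 in the controls. Their part in the carrier results was not tested. The summed levels of the other marker lists overlapped between the groups, among them the 5 erythroid genes, with sums of 16887 to 23639.9 in knockout and 17307 to 22619 in control libraries. The 5 macrophage genes summed to 1578 to 1638 in knockout and 1397 to 1603 in control libraries. Single genes of these lists without overlap were Adgre1, a macrophage marker, at 132, 116 and 106 normalised counts in the knockout libraries, against 86.7, 96.8 and 92.6 in the controls, and Pdgfra, a fibroblast marker, at 835, 819.9 and 829 normalised counts in the knockout libraries, against 889.9, 866 and 874 in the controls, neither called by limma, and their part was not tested either. Among all 18250 features tested, 9.51% had groups without overlap. The other fibroblast genes went both ways, with log2 fold changes of 0.10 for Col1a2, 0.080 for Dcn, -0.080 for Col1a1 and -0.12 for Col3a1. In bulk tissue, fewer cells of a type and less RNA per cell cannot be told apart.

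The sequence around the annotated start is shown for the 2 adenine nucleotide carriers expressed in these hearts, and for Slc25a34 and Slc25a42. The latter 2 were picked after their values were seen, as carriers that shared their 3 highest libraries. Slc25a4 had the same 3 highest libraries, so that set does not part the 2 pairs. Windows (RefSeq, GRCm38.p6) run from 250 bases before to 50 bases after the start, 5′ to 3′ on the gene's strand. Capitals mark matches to any of 5 motifs searched on both strands, TATAAN for a TATA box, CCGGAAG for ETS factors, GCGCA followed directly by its reverse complement TGCGC for NRF1, TCAAGGTCA for ERR receptors, and AGGNCA repeated after 1 free base for PPAR receptors. No marked matches overlap.
Slc25a4 (chr8:46211013-46211312, minus strand): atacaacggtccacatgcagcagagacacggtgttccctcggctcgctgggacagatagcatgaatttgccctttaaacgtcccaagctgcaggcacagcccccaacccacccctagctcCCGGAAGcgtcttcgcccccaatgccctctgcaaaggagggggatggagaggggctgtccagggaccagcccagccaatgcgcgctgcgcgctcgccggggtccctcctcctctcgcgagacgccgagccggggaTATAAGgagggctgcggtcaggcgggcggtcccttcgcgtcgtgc
Slc25a5 (chrX:36795347-36795646, plus strand): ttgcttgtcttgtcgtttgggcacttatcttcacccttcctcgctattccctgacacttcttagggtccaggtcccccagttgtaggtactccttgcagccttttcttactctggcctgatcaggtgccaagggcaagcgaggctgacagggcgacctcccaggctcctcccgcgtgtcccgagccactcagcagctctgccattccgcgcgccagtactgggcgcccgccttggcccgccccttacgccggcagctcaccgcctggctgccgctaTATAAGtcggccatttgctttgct
Slc25a34 (chr4:141623785-141624084, minus strand): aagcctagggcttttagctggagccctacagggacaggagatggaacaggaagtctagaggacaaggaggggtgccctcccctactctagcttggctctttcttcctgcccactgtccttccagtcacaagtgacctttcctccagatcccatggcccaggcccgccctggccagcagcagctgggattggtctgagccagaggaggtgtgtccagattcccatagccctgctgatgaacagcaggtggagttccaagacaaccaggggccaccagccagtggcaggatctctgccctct
Slc25a42 (chr8:70212232-70212531, minus strand): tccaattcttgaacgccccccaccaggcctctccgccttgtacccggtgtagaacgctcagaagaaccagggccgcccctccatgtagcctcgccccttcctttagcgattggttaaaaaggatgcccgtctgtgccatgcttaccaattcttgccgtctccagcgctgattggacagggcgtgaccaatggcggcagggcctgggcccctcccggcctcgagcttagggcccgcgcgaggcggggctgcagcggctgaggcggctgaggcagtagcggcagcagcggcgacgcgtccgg
Both adenine nucleotide carrier windows hold TATAAG, 6 bases past the annotated start in Slc25a4 and 27 bases past it in Slc25a5, and that of Slc25a4 also holds CCGGAAG 130 bases before it, while none of the 5 motifs has a match in the windows of Slc25a34 and Slc25a42. Of the 38 carriers, 29 had a window in the RefSeq table, and TATAAN was found in 3 of these 29 (10.3%), against 27.9% of the 27025 genes with a window. CCGGAAG was found in 5 of 29 (17.2%), namely Slc25a3, Slc25a4, Slc25a17, Slc25a25 and Slc25a38, against 9.93% of all genes. The other 3 motifs were in 0 of 29, against 1.07% of all genes for NRF1, 0.466% for ERR and 0.451% for PPAR. A gene with several windows was counted if any of them matched. Of the 32851 single windows, 24.8% held TATAAN and 8.86% CCGGAAG. These are letter matches at any position in a short window and no evidence of binding. The TATAAG matches of Slc25a4 and Slc25a5 lie past the annotated start, so TATA box names the letters only there.

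Differences in carrier transcripts between knockout and control hearts were mostly small, and none passed the test. None of the 38 carriers was called by limma, higher or lower, at a Benjamini-Hochberg adjusted p under 0.05 over all 18250 features, where 4 features (0.0219%) were called, and the adjusted p was 1.00 for each carrier. An unadjusted p under 0.05 was reached by 1 carrier, Slc25a53 (2.63% of the 38), against 3.70% of all features. With 1 carrier, these 2 shares cannot be told apart. The groups did not overlap in 2 carriers, Slc25a24 and Slc25a26, both lower in knockout, which is 5.26% of the 38 against 9.51% of all features. The median log2 fold change, knockout over control on the log2(normalised count + 1) scale, was -0.0027 over the carriers and 0.00056 over all features, with 18 of 38 carriers above 0. Of the 38, 24 had a log2 fold change smaller than 0.1 in size.

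The same count of 0 carriers came from edgeR's quasi-likelihood test on the recovered reads, which called 5 features in all (0.0274%) and gave 1 carrier an unadjusted p under 0.05. DESeq2 on those reads called 33 of the 7233 features with an adjusted p (0.456%) and 0 of the 20 carriers that had one. There 1 carrier had an unadjusted p under 0.05. In the authors' deposited table, 33 of 7550 features with an adjusted p were called (0.437%) and 0 of the 21 carriers that had one. A p that misses the threshold does not show equality, so the intervals give the size of difference these libraries leave possible. Taken gene by gene, the 95% interval lay within 1.25-fold in either direction for 20 of the 38 carriers and within 1.5-fold for 35. The exceptions at 1.5-fold were the low-count genes Slc25a1, Slc25a53 and Slc25a14.

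**Figure D1:**
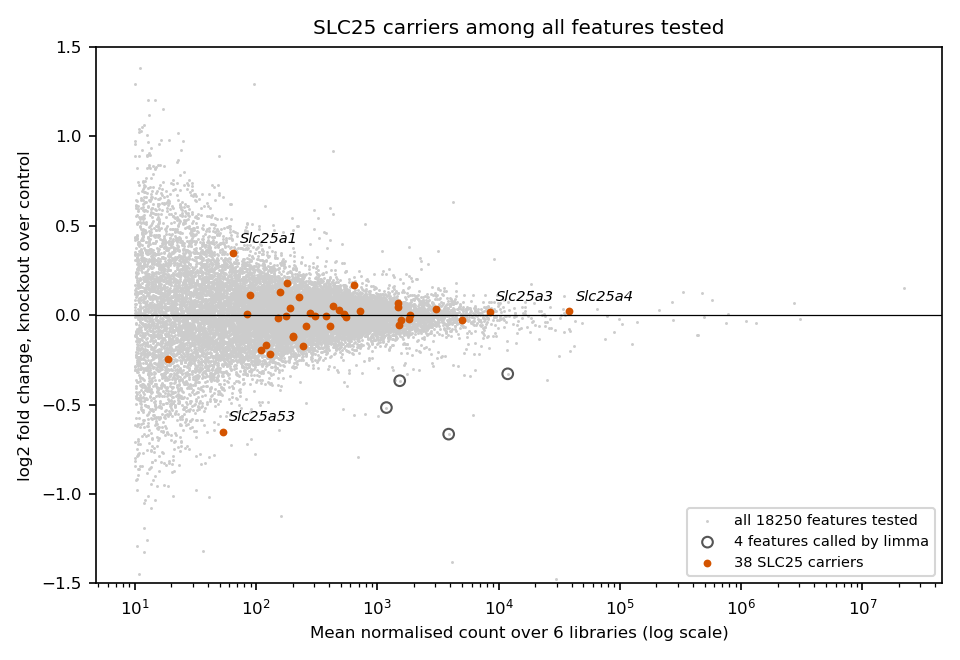
Log2 fold change of knockout over control (vertical axis) against mean normalised count over 6 libraries (horizontal axis, log scale) for 18250 tested features, with the 38 carriers filled and the 4 features called by limma ringed. Carriers with a mean of at least 1000 lie within 0.1 of 0, those at the low end spread further, out to Slc25a53 at -0.65, and 6 features beyond 1.5 in size are outside the axis.

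Reads were spread very unevenly over the family. Together the 38 carriers held 73136, 70359 and 73499 normalised counts in knockout 492, 499 and 501, against 73693, 71308 and 69809 in control 490, 498 and 502, and the groups overlapped. As a share of the values on features outside mitochondrial DNA, the sum was 0.545, 0.532 and 0.544% in the knockout libraries and 0.530, 0.527 and 0.517% in the controls. Those shares did not overlap, but this choice of total also raises the median log2 fold change of all features to 0.028, and the share was not tested. Slc25a4 alone took 53.6, 53.1 and 53.5% of the family's values in the knockout libraries and 53.7, 53.3 and 52.5% in the controls. A mean of at least 1000 counts was reached by 10 carriers, while 23 lay between 100 and 1000 and 5 were below 100. These are read counts per gene and grow with transcript length, so they do not rank the genes by molecules. In the plot of values by library, the highest library was less than 1.25-fold above the lowest for 9 of the 10 carriers with a mean of at least 1000, and up to 2.22-fold above it among the others, in Slc25a53.

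**Figure D2:**
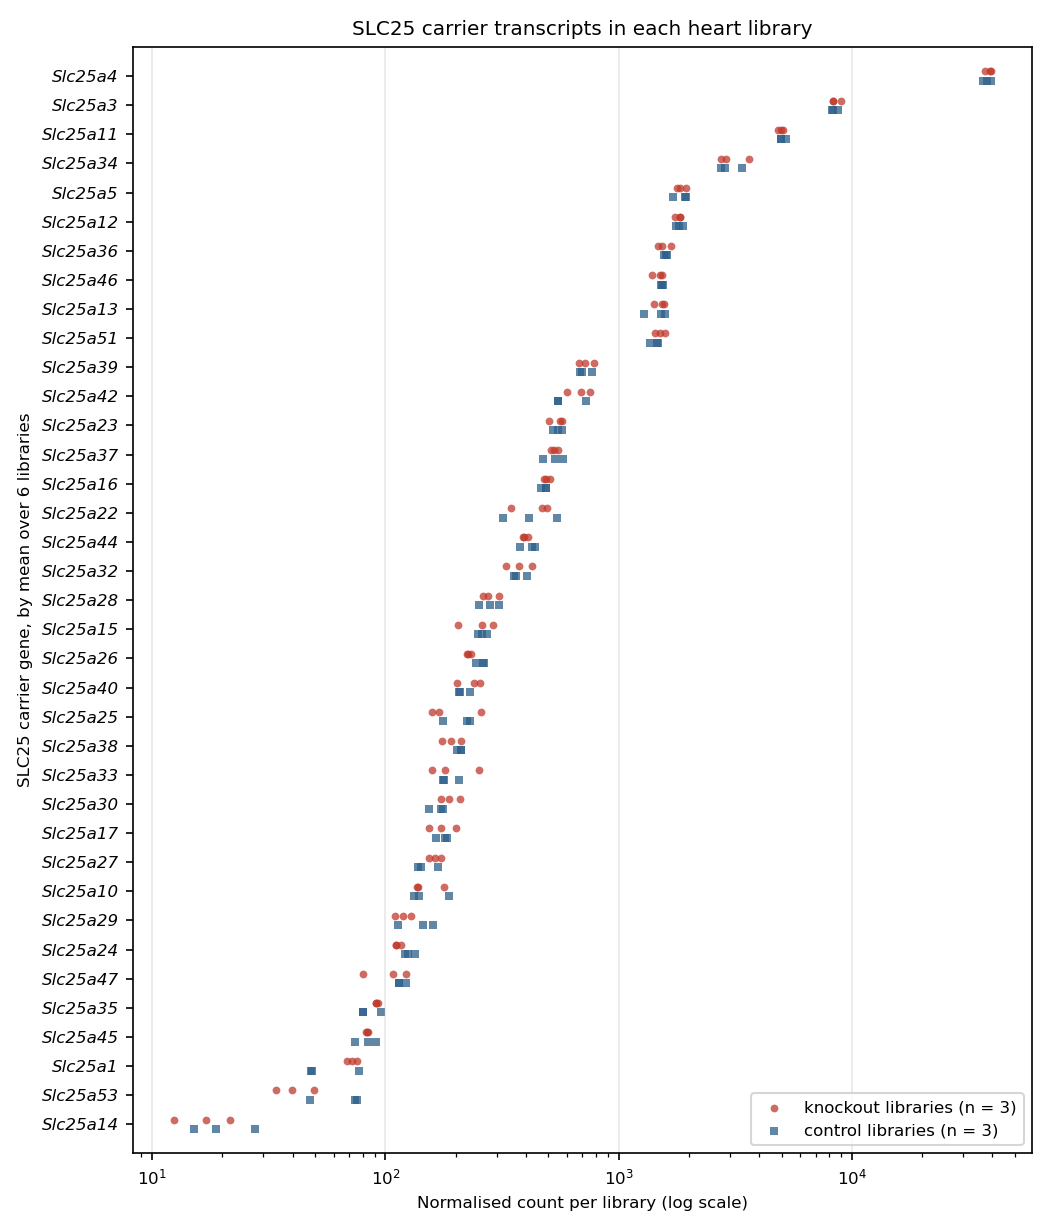
Normalised count (horizontal axis, log scale) of each of 37 carriers (rows, by mean) in the 3 knockout libraries (circles) and the 3 control libraries (squares). Slc25a4 stands at the top with 36661 to 39552 counts, and the points of both groups mix in 35 of the 37 rows.

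The adenine nucleotide carriers exchange matrix ATP for cytosolic ADP. Slc25a4 (ENSMUSG00000031633.4, chromosome 8, 46207168 to 46211062), which encodes ANT1, the form of heart and skeletal muscle, held 39205, 37393 and 39358 normalised counts in knockout 492, 499 and 501, against 39552, 37976 and 36660.5 in control 490, 498 and 502. Its values were within 1.08-fold of each other over the 6 libraries, the groups overlapped, and the difference was small (log2 fold change 0.022, 95% interval -0.077 to 0.12). Slc25a5 (ENSMUSG00000016319.3, chromosome X, 36795597 to 36798808), which encodes ANT2, the form found in most other tissues, held 1946, 1837 and 1786 normalised counts in the knockout libraries, against 1715, 1928 and 1935 in the controls. It was equally flat (log2 fold change -0.0011, 95% interval -0.13 to 0.13). A pseudogene copy of it on chromosome 14, Slc25a5-ps, held 22.6 to 43.6 counts in knockout and 39.3 to 43.2 in control libraries, and since the division of reads between near-identical copies is not described, counts of both are uncertain to that extent. Slc25a31, the ANT4 form known from testis, stayed below the level required, with 12.9, 6.63 and 15.8 normalised counts in the knockout libraries, against 3.57, 3.76 and 8.14 in the controls. The groups overlapped there too, at a depth of no more than 14 reads in a library.

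The phosphate carrier Slc25a3 (ENSMUSG00000061904.12, chromosome 10, 91116574 to 91124046), which brings phosphate into the matrix for ATP synthesis, held 8939, 8317 and 8321 normalised counts in the knockout libraries, against 8741, 8310.3 and 8185 in the controls. Like Slc25a4 it overlapped between the groups (log2 fold change 0.019, 95% interval -0.083 to 0.12). The calcium-regulated ATP-Mg/phosphate carriers, which set the size of the matrix adenine nucleotide pool, were far lower in reads. Slc25a23 held 504, 574 and 562 normalised counts in the knockout libraries, against 525, 574 and 552 in the controls (log2 fold change -0.011). Slc25a24 (ENSMUSG00000040322.10, chromosome 3, 109123149 to 109168409) was 1 of the 2 carriers whose groups did not overlap, with 111, 111 and 116 normalised counts in the knockout libraries, against 122, 125 and 133 in the controls. Every knockout library was below every control, by a margin that limma did not call (log2 fold change -0.17, 95% interval -0.43 to 0.092). These values rest on 103 to 136 reads per library. Their variance within groups was 0.19 times that of counting noise alone, the lowest such ratio among the carriers. Its part in the lack of overlap was not tested. Slc25a25 overlapped widely, between 159 and 257 counts in knockout and 176 and 231 in control libraries, with its log2 fold change at -0.12. Slc25a41, the fourth of this kind, had no read in any library, which allows up to 3 reads in each by counting error alone.

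The carriers of the malate-aspartate shuttle move reducing equivalents of cytosolic NADH into the matrix. Slc25a11 (ENSMUSG00000014606.14, chromosome 11, 70644019 to 70647531), the oxoglutarate/malate carrier, held 4985, 4818 and 5090.1 normalised counts in the knockout libraries, against 5211, 4982 and 4969.7 in the controls. Its groups overlapped within a range of 1.08-fold (log2 fold change -0.026, 95% interval -0.12 to 0.073). Slc25a12 (ENSMUSG00000027010.16, chromosome 2, 71274270 to 71367781), the aspartate/glutamate carrier aralar, held 1749, 1824 and 1837 normalised counts in the knockout libraries, against 1895, 1769 and 1818 in the controls. It too overlapped (log2 fold change -0.019, 95% interval -0.13 to 0.094), as did its paralog Slc25a13, or citrin, at 1414, 1572 and 1539.9 normalised counts in the knockout libraries, against 1288, 1527 and 1576 in the controls. For Slc25a13 the lowest value was that of control 490 and the log2 fold change was 0.048. The shuttle's enzymes gave the same picture, with 0 of 4 called and a median log2 fold change of -0.015, the smallest p belonging to Got1 (-0.098), the cytosolic aspartate aminotransferase.

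**Figure D3:**
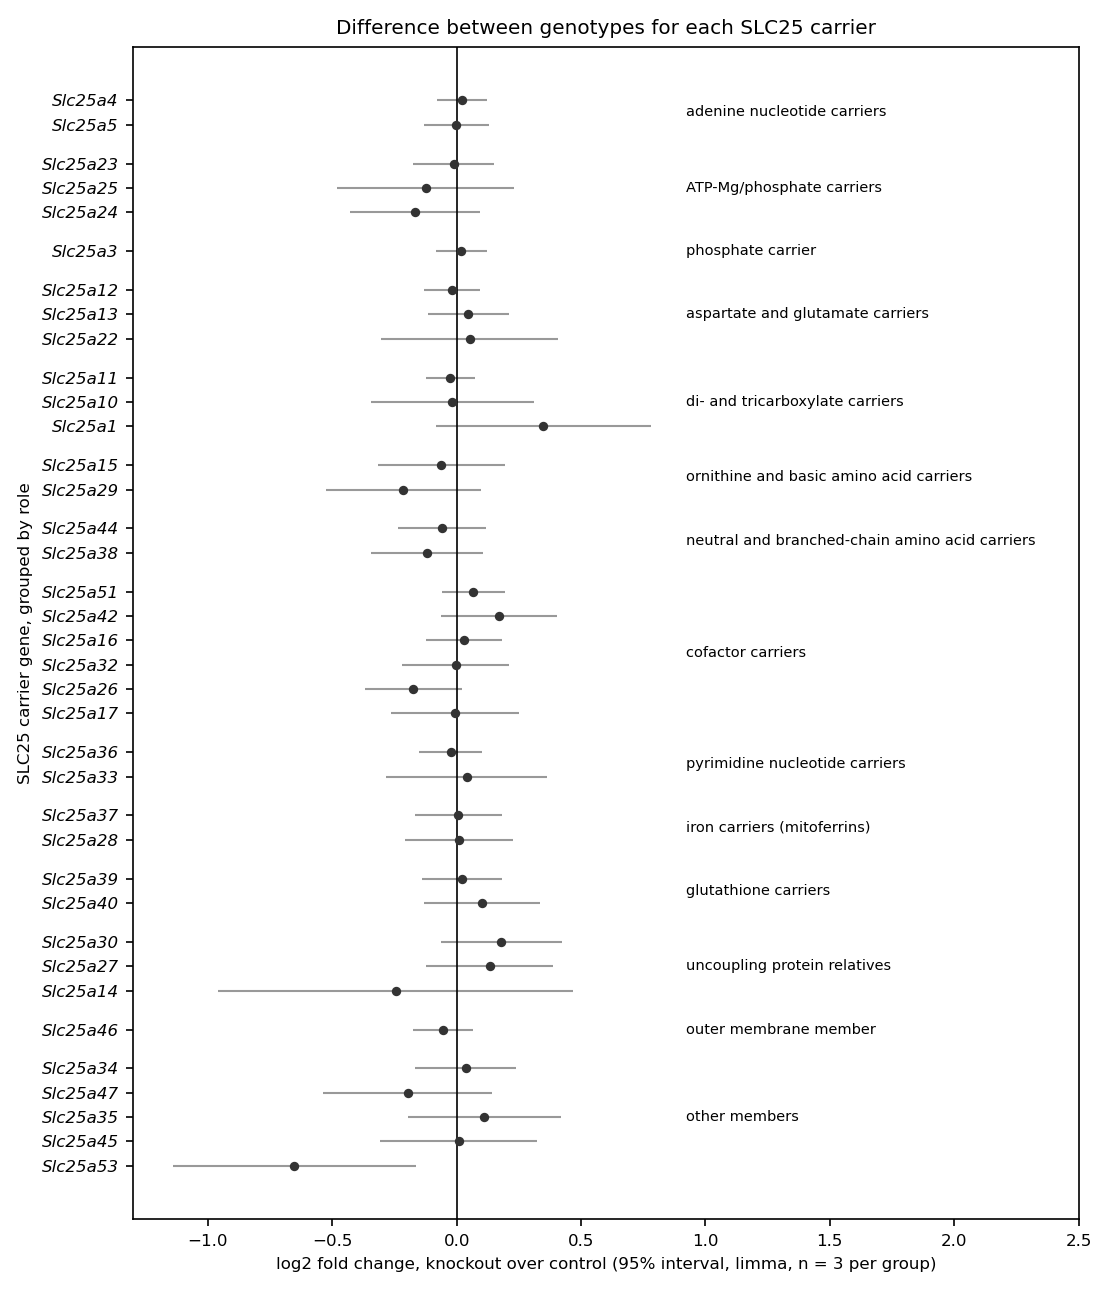
Log2 fold change of knockout over control with its 95% interval from limma (horizontal axis, n = 3 per group) for each of 37 carriers, grouped by role and ordered within a role by mean count. All intervals cross 0 except that of Slc25a53, and intervals widen toward the low-count genes.

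Among the other carriers of amino acids and organic acids, Slc25a22, a proton-coupled glutamate carrier, varied between libraries within both genotypes, with 492, 345 and 472 normalised counts in knockout 492, 499 and 501, against 542, 414 and 319.5 in control 490, 498 and 502. The values of the groups were fully mixed (log2 fold change 0.052, 95% interval -0.30 to 0.41). Its paralog Slc25a18 lay below the required level, with 17.2, 8.52 and 6.77 normalised counts in the knockout libraries, against 8.04, 4.70 and 6.11 in the controls. Slc25a1, the citrate carrier, had the largest positive log2 fold change of the family, with 68.7, 72.0 and 75.6 normalised counts in the knockout libraries, against 48.2, 47.9 and 77.3 in the controls. Control 502 was the highest of all 6 libraries, so the groups overlapped, and the interval was wide (log2 fold change 0.35, 95% interval -0.083 to 0.78). Without control 502 the log2 fold change was 0.57, and over the 6 libraries left out in turn it was at least 0.23. The dicarboxylate carrier Slc25a10 was at -0.017, while Slc25a21, the oxodicarboxylate carrier, had at most 4 reads in a library. Ornithine carrier Slc25a15 was at -0.062, the basic amino acid carrier Slc25a29 at -0.22, the branched-chain amino acid carrier Slc25a44 at -0.058 and the glycine carrier Slc25a38 at -0.12, all with overlap. Slc25a2, an ornithine carrier gene just outside the required level with a mean of 9.88 counts, held 6.25 to 13.5, and Slc25a14, just inside it with a mean of 18.7, held 12.4 to 27.5.

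The 7 cofactor carriers had 0 calls and a median log2 fold change of -0.0042. Slc25a26 (ENSMUSG00000045100.11, chromosome 6, 94500295 to 94604659), which brings S-adenosylmethionine, the methyl donor for mitochondrial RNA and protein methylation, into the matrix, was the other carrier without overlap, at 223, 234 and 227 normalised counts in the knockout libraries, against 246, 262 and 265 in the controls. The gap between the lowest control and the highest knockout library was small, and the interval included 0 (log2 fold change -0.17, 95% interval -0.37 to 0.020). Within groups the variance of Slc25a26 was 0.29 times that of counting noise alone, the next lowest ratio after that of Slc25a24, and its part was not tested either. Its annotated span overlaps that of Lrig1, and the use of strand in counting is not given here, so reads of the pair may not be separated. Slc25a51, the NAD+ carrier, held 1582, 1499 and 1434 normalised counts in the knockout libraries, against 1368, 1463 and 1477 in the controls (log2 fold change 0.067). Slc25a42, a carrier of coenzyme A, held 751, 600.3 and 693 normalised counts in knockout 492, 499 and 501, against 726, 549 and 550.5 in control 490, 498 and 502, and Slc25a16, a carrier linked to coenzyme A through its yeast relative, held 479, 509 and 488 normalised counts in the knockout libraries, against 466, 489.8 and 488 in the controls. Slc25a42 was higher in knockout hearts on average, though not called (log2 fold change 0.17, 95% interval -0.064 to 0.40) with overlap through control 490, and Slc25a16 was among the steadiest genes of the family (log2 fold change 0.031). The folate carrier Slc25a32 was within 0.01 of 0, as was Slc25a17, a member found in peroxisomes.

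The pyrimidine nucleotide carriers supply the matrix with building blocks for mitochondrial RNA and DNA. Slc25a36 held 1679, 1539.5 and 1474 normalised counts in the knockout libraries, against 1564, 1611 and 1591 in the controls (log2 fold change -0.024, 95% interval -0.15 to 0.10). Slc25a33, the second of them, held 158, 179.9 and 252 normalised counts in the knockout libraries, against 207, 177 and 179 in the controls, with knockout 501 the highest library and knockout 492 the lowest (log2 fold change 0.041). Neither separated the genotypes. Of the iron carriers, Slc25a37 (mitoferrin 1), which is needed for haem synthesis in red cell precursors, held 512, 548 and 530.2 normalised counts in the knockout libraries, against 475, 578 and 534 in the controls, and Slc25a28 (mitoferrin 2) held 263, 307 and 275 normalised counts in the knockout libraries, against 308, 252 and 279.8 in the controls. Both overlapped, at log2 fold changes of 0.0065 and 0.010. Slc25a39, which imports glutathione, the main thiol antioxidant of the matrix, held 679, 719.6 and 782 normalised counts in the knockout libraries, against 699, 766 and 683 in the controls, and its paralog Slc25a40 held 203, 239.5 and 254 normalised counts in the knockout libraries, against 231, 209.6 and 207 in the controls. Neither pair of groups was apart (log2 fold changes 0.021 and 0.10).

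The relatives of the uncoupling proteins, Slc25a30, Slc25a27 and Slc25a14, had mean counts of 179, 157 and 18.7 over the 6 libraries. Slc25a30 held 174, 187 and 209.8 normalised counts in the knockout libraries, against 154, 176 and 174 in the controls, the second largest positive difference of the family (log2 fold change 0.18, 95% interval -0.065 to 0.42). The groups overlapped only in that the lowest knockout value lay among the controls. Slc25a27 was at 0.13, and Slc25a14, with 21.5, 17.0 and 12.4 normalised counts in the knockout libraries, against 18.8, 15.0 and 27.5 in the controls, was at -0.24. Without control 502 it was at -0.018, without knockout 501 at -0.048 and without control 498 at -0.43, so its size rested on single libraries. Slc25a46, the outer membrane member of the family, which is tied to mitochondrial fission and lipid transfer, held 1535, 1502 and 1392 normalised counts in the knockout libraries, against 1524, 1528 and 1544 in the controls, with overlap through knockout 492 (log2 fold change -0.055, 95% interval -0.17 to 0.066).

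Slc25a53 (ENSMUSG00000044348.14, chromosome X, 136981116 to 137038302), a member of unknown substrate, had the largest difference in size. It held 49.4, 39.8 and 33.8 normalised counts in knockout 492, 499 and 501, against 47.4, 75.2 and 74.3 in control 490, 498 and 502. The lowest control library, 490, lay below the highest knockout library, 492, so the groups overlapped, and the log2 fold change of -0.65 (SE 0.23, 95% interval -1.14 to -0.16) had a limma adjusted p of 1.00. Leaving out 1 library gave log2 fold changes from -0.87 to -0.53, none of them called. The counts rest on 30 to 80 reads per library, and the gene's span holds Zcchc18, itself at no more than 2 reads. Of the remaining members, Slc25a47 was at -0.20, Slc25a35 at 0.11 and Slc25a45 at 0.0080, all with overlap. Slc25a43 held no more than 7.52 counts, and Slc25a48 and Slc25a54 had no read in any library, with the same limit of 3 reads each.

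Ratios of related carriers within a library do not depend on how libraries are scaled, and were compared for 8 pairs. The log2 ratio of Slc25a4 to Slc25a5 counts was 4.38 ± 0.071 in knockout and 4.36 ± 0.15 in control libraries (SD, n = 3 each), a difference of 0.024 with an exact permutation p of 0.8, 2-sided. That of Slc25a12 to Slc25a13 was 0.26 ± 0.046 in knockout and 0.33 ± 0.20 in control libraries (exact permutation p = 1), where control 490 stood above the other 5 libraries. The pair with the smallest p was Slc25a23 over Slc25a24, at 2.28 ± 0.092 in knockout and 2.12 ± 0.076 in control libraries, a difference of 0.16 with overlap (exact permutation p = 0.2). Slc25a22 over Slc25a18 stood at 5.43 ± 0.65 in knockout and 6.08 ± 0.37 in control libraries, a difference of -0.65 (exact permutation p = 0.3), a value that rests on the few reads of Slc25a18. It was -0.99 without knockout 501 and -0.35 without knockout 492. The other 4 pairs differed by -0.080 (Slc25a39 over Slc25a40), 0.0038 (Slc25a28 over Slc25a37), 0.065 (Slc25a33 over Slc25a36) and 0.14 (Slc25a42 over Slc25a16), with exact permutation p-values from 0.5 to 1. All 8 pairs overlapped between the groups and had an adjusted p of 1 over the 8, and 3 libraries against 3 cannot give a p below 0.1.

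**Figure D4:**
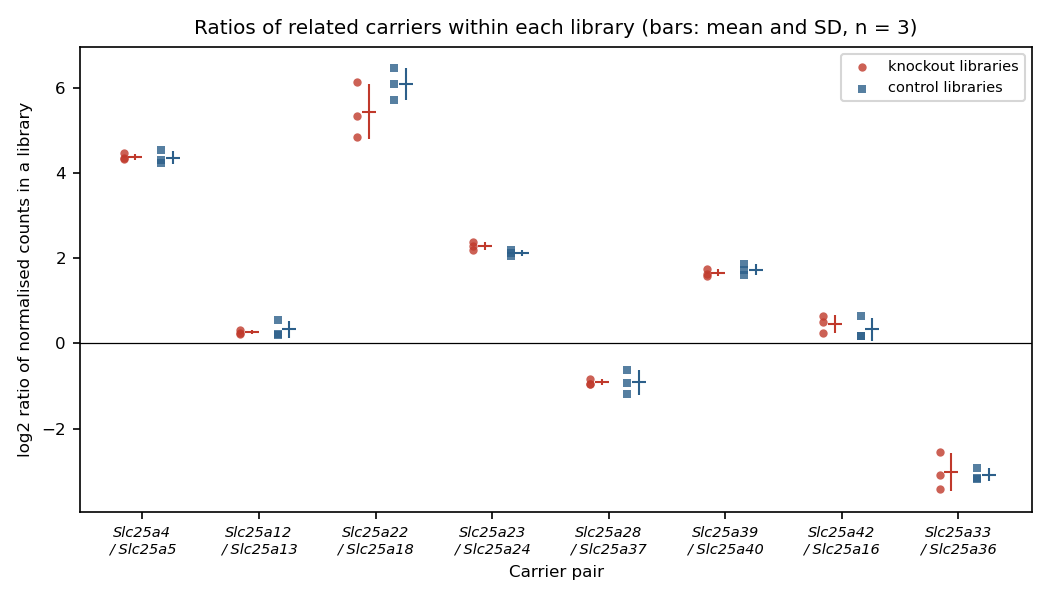
Log2 ratio of normalised counts of 2 related carriers in each library (vertical axis) for 8 pairs (horizontal axis), with knockout libraries as circles left of control libraries as squares and bars for the mean and SD (n = 3 per group). The groups overlap in all 8 pairs.

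Differences between single libraries are described here for several carriers, which were picked after their values were seen. A range over 6 libraries cannot be smaller than the difference of the group means, so a wider range alone is no trait of these carriers. Of the 10 carriers with a mean of at least 1000 counts, 9 spanned less than 1.25-fold from the lowest to the highest library, and the exception was Slc25a34, which spanned 1.32-fold. Slc25a34 (ENSMUSG00000040740.7, chromosome 4, 141618819 to 141623891), a carrier related to the oxaloacetate carrier of yeast whose substrate in mammals is not established, held 2879, 2759.9 and 3620.2 normalised counts in knockout 492, 499 and 501, against 3395, 2858 and 2749 in control 490, 498 and 502. The genotypes were mixed (log2 fold change 0.036, 95% interval -0.17 to 0.24). Its 3 highest libraries were knockout 501, control 490 and knockout 492. Of these, knockout 492 was barely above control 498, at 2879 against 2858 normalised counts, and on the log2 scale both lay below the gene's mean. The same 3 libraries were the highest for Slc25a42 and for Slc25a22, whose values are given above. They were also the highest for carriers that varied little, among them Slc25a4, Slc25a3 and Slc25a11. The set is therefore not particular to carriers that varied, nor was it shared by all of those. Slc25a25 and Slc25a33 were highest in knockout 501 and control 490 as well, but both were lowest in knockout 492, and so was Ucp2, another uncoupling protein. The 3 libraries were also the highest for Ucp3, an uncoupling protein of muscle that belongs to the same family under another symbol, which held 667, 271 and 869 normalised counts in the knockout libraries, against 789, 427 and 277 in the controls. Pdk4, the pyruvate dehydrogenase kinase induced by fasting and fatty acids, had the same set of 3 highest libraries though in another order, at 3364, 2038 and 4623 normalised counts in the knockout libraries, against 5611, 1989 and 1338 in the controls. Each of these 5 genes (Slc25a34, Slc25a42, Slc25a22, Ucp3 and Pdk4) had both genotypes among its highest and its lowest libraries. With 6 libraries, these orders are a description and were not tested.

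**Figure D5:**
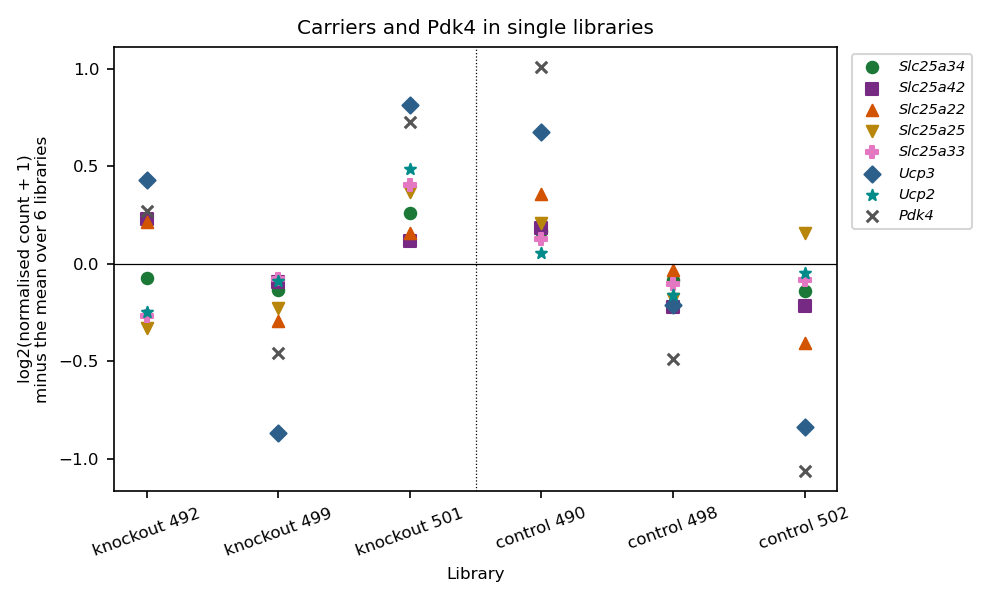
Level of 5 carriers, Ucp3, Ucp2 and Pdk4 in each library, as log2(normalised count + 1) minus the mean over the 6 libraries (vertical axis), with the 3 knockout libraries left of the 3 controls. Knockout 501 and control 490 lie above 0 for all 8 genes and knockout 499 and control 498 below 0, while knockout 492 lies above 0 for 4 genes and control 502 for Slc25a25 alone.

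Family members under other symbols also had no call. Of Ucp1, Ucp2, Ucp3, Mtch1 and Mtch2, 4 had enough counts to be tested and 0 were called, with Ucp2 at a log2 fold change of 0.099 and Ucp3 at 0.25 with a 95% interval of -0.55 to 1.05. Ucp1, the uncoupling protein of brown fat, had 1 read in 1 knockout library and 0 in the other 5 libraries. Mtch1 and Mtch2, outer membrane proteins that insert other proteins, were at -0.024 and -0.018.

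No call was made among the other transporters of the mitochondrial membranes. The mitochondrial pyruvate carrier and sideroflexin genes had 0 of 7 called (median 0.014), with the smallest p for Mpc1, a pyruvate carrier subunit, at 0.077. The calcium and cation transporters had 0 of 8 called (median -0.069), with the smallest p for Smdt1, the EMRE subunit of the calcium uniporter, at -0.12, and the ABC transporters 0 of 4 (median 0.065), with Abcb6 at 0.28. Of the outer membrane porins, 0 of 3 were called. Vdac1, through which metabolites reach the carriers, held 6356, 5979 and 5822 normalised counts in the knockout libraries, against 6814, 6634 and 6733 in the controls. Every knockout library was below every control, by -0.15 in log2 (limma adjusted p = 1.00), while Vdac2 and Vdac3 were at 0.013 and 0.0038. Groups without overlap occurred in 9.51% of all features tested.

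Among 5 proteins that work beside the adenine nucleotide carriers, limma called 0. Atp5a1, the alpha subunit of ATP synthase, held 29016, 27801 and 29564 normalised counts in the knockout libraries, against 34781, 33709.5 and 32751 in the controls. The groups did not overlap, with -0.23 as the log2 fold change and 0.176 as limma's adjusted p, and Atp5a1 was called in the authors' deposited table, with an adjusted p of 0.00347. Slc25a4 and Slc25a3, whose proteins serve the same enzyme, lacked such a gap, as did its beta subunit gene Atp5b (0.0099). Ckmt2, the mitochondrial creatine kinase of striated muscle, which sits at the outer face of the inner membrane near ANT1, held 9811, 9978 and 10328 normalised counts in the knockout libraries, against 9310.4, 9478 and 9053 in the controls. Here every knockout library was above every control, by a log2 fold change of 0.11 (limma adjusted p = 1.00). Ppif, the matrix cyclophilin of the permeability transition, was at -0.0056. Lack of overlap, as in Atp5a1 and Ckmt2, was found in 9.51% of all features tested. Differences between these genes and the carriers were not tested.

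The carriers are scattered over the genome, with 3 of the 38 on the X chromosome, Slc25a5, Slc25a14 and Slc25a53. In 4 places a pair of family genes lies side by side, and in 3 of them 1 gene of the pair was below the required level. Slc25a23 lies 2056 bases from Slc25a41, Slc25a24 lies 6566 bases from Slc25a54, and Slc25a5 lies 18289 bases from Slc25a43. In each of these places the silent or nearly silent neighbour was the same in both genotypes. Slc25a29 and Slc25a47, 13956 bases apart on chromosome 12, were both present, at 109 to 161 and 80.5 to 123 counts over the 6 libraries. The annotated span of 11 of the 38 carriers overlaps another annotated gene, so reads of those may not be fully separated.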

How the data were processed

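Total RNA of whole hearts, depleted of cytoplasmic ribosomal RNA and primed with random hexamers per the labels' protocols, was measured in 3 knockout and 3 control libraries. Libraries of mitochondrial RNA ends, 3 per group, were not analysed here. The deposited expression values are a signal per gene, counts that the authors divided by 1 size factor per library. Per the submitters' processing notes, DESeq2 1.22.2, R 3.5.2, featureCounts, bedtools and Bowtie2 2.3.4.1 were among the tools, and mm10 and GRCm38 the builds. A second table deposited by the authors holds their log2 fold changes, a test score and p-value columns, used only as given. Whole reads were recovered for 100% of the 156689 nonzero values (tolerance 0.01). Libraries of a group differed by more than counting noise (chi-square per degree of freedom 3.53 to 15.2), and each was kept as 1 sample.

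Symbols were matched for 54686 of 54715 Ensembl identifiers, without version numbers. Positions are from RefSeq GRCm38.p6, 1-based. Genotype was the only term in limma 3.58.1 (trended prior, log2(value + 1), 2-sided), run on 18250 features whose mean was 10 or more and adjusted by Benjamini-Hochberg at 0.05, in R 4.3.3. The script was tested on simulated data. Pair ratios were compared by exact permutation tests. edgeR 4.0.16 and DESeq2 1.42.0 were run on the recovered reads as alternatives. Some carrier genes are not reported by name here, though the counts over 38 carriers include 1 of them. Members and lists were chosen with earlier results of these data known. Values in each library are given for the 8 carriers with most reads, those at an unadjusted p under 0.05, both genes of each pair, and the 2 largest and 2 smallest log2 fold changes. The 8 were to be ranked per kilobase of exon, but exon lengths are not used here. From related lists, genes at an unadjusted p under 0.05 are named, or the 1 of smallest p, and others named were chosen after their values were seen. Counting limits of 3 reads cover counting error only.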

Additional observations from a re-analysis of the deposited data

How the results depend on the processing

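No carrier that had an adjusted p was called under any of the 18 alternatives. The smallest adjusted p of a carrier was 0.534 (limma with equal library totals, Slc25a53). DESeq2 gave an adjusted p to 20 of the 38 carriers and the authors' deposited table to 21, so the others could not be called there. Slc25a53, Slc25a1, Slc25a24 and Slc25a26 were without one in the deposited table. Of the 38 carriers, 15 kept the sign of their log2 fold change under every alternative that gave a value and 17 under those that left no library out. Slc25a14 gave none under a minimum mean of 50. Changing the filter, dropping the trend or using robust moderation leaves the log2 fold change itself as it was, so these alternatives could not turn a sign. DESeq2 and the authors' deposited table gave nearly the same log2 fold changes and are not independent checks. The features called, 4 with limma, numbered 12 with no filter on low values, 37 with equal totals (36 lower and 1 higher in knockout), 0 without a trend, 12 with robust moderation, and 33 both with DESeq2 and in the authors' deposited table. Leaving out 1 library gave 1 to 8 features, with 1 each without knockout 499, control 498 or control 502 and 8 without control 490. Equal totals put the median log2 fold change of all features at -0.069, and by that shift the sign turned for Slc25a51 -0.0029, Slc25a34 -0.034, Slc25a33 -0.029, Slc25a13 -0.022, Slc25a22 -0.018, Slc25a4 -0.048, Slc25a16 -0.039, Slc25a3 -0.051, Slc25a39 -0.049, Slc25a37 -0.063, Slc25a45 -0.061, Slc25a28 -0.060. Equal totals without features of mitochondrial DNA turned it for Slc25a12 0.0083, Slc25a36 0.0030, Slc25a11 0.0016, Slc25a10 0.010, Slc25a32 0.023, Slc25a17 0.022, Slc25a23 0.016, Slc25a5 0.026. It also turned for Slc25a5 0.00022 with TMM scaling, for Slc25a32 0.0067, Slc25a17 0.0063 with edgeR, and for Slc25a32 0.0042, Slc25a17 0.0041 with DESeq2 and in the authors' deposited table. With 1 library left out, the sign of these log2 fold changes depended on the library, over the ranges Slc25a25 -0.34 to 0.0078, Slc25a12 -0.042 to 0.0073, Slc25a34 -0.084 to 0.13, Slc25a33 -0.15 to 0.18, Slc25a13 -0.042 to 0.10, Slc25a22 -0.14 to 0.24, Slc25a15 -0.17 to 0.077, Slc25a4 -0.0043 to 0.051, Slc25a36 -0.076 to 0.017, Slc25a3 -0.016 to 0.047, Slc25a39 -0.032 to 0.071, Slc25a10 -0.14 to 0.14, Slc25a37 -0.068 to 0.072, Slc25a32 -0.098 to 0.087, Slc25a17 -0.11 to 0.085, Slc25a23 -0.047 to 0.046, Slc25a45 -0.071 to 0.075, Slc25a28 -0.063 to 0.082, Slc25a5 -0.058 to 0.029. Differences of log2 ratios did so for Slc25a4/Slc25a5 -0.033 to 0.11, Slc25a12/Slc25a13 -0.13 to 0.049, Slc25a28/Slc25a37 -0.14 to 0.15, Slc25a33/Slc25a36 -0.17 to 0.26. Of the 8 carriers with most reads, 7 were among the first 8 in knockout libraries alone. No paired analysis was possible because the columns carry no replicate numbers. Ranking by longest transcript was not run, since exon lengths are not used here. The spread of 3 libraries per group limits Slc25a1, Slc25a53 and Slc25a14 most, whose intervals reached beyond 1.5-fold.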
